A study of Mus musculus with 6 samples.

Results

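The genes described here mark microglia and macrophages, the myeloid cells of the brain and its borders. They were chosen by name, as 34 genes of these cells, with earlier results of these data known. All 34 were found among the 24972 gene rows of the table. Their levels were compared between Tsc2 wt/wt and Tsc2 mut/mut cultures, and the wt/wt cultures were compared with each other to show how much of this signal each held.

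The 6 libraries came from mouse neural stem cell (NSC) cultures, 3 of each genotype. The cultures were set up from neonatal pups, out of the niche of stem cells beside the lateral ventricles (V-SVZ). Mice of both genotypes carried a Rosa26 tdTomato reporter and the Nes-cre/ERT2 transgene and were given tamoxifen, so the controls shared the recombinase and the drug. They differed in the Tsc2 gene, which was unmodified in wt/wt pups and was the conditional Tsc2tm1.1Mjg allele in mut/mut pups. Tsc2 encodes tuberin, an inhibitor of the growth kinase complex mTORC1. Cells grew as an adherent layer on laminin and poly-D-lysine with EGF, FGF and B-27 and were passaged before polyadenylated RNA was sequenced. The recombinase is driven by the Nestin promoter, which is active in neural progenitors, and whether myeloid cells of these cultures recombined was not tested. No medium component named by the study is a myeloid growth factor. The number of animals behind each culture is not given in the sources used here, and p-values measure the spread between these 6 libraries, which may be technical.

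Microglia derive from yolk sac progenitors that enter the brain before birth, and they persist there by signalling through the CSF1 receptor under the transcription factors PU.1 and IRF8. They survey tissue through purine and fractalkine receptors, take up debris and complement-tagged material through scavenger, Fc and integrin receptors, and degrade it in lysosomes. Macrophages of the meninges, choroid plexus and vessels share most of these genes. Dissociated brain tissue can hold both kinds of cell.

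Each value below is a normalised count, the read count of a gene after DESeq2 scaling by the authors, as deposited. Differences were tested with limma on log2(normalised count + 1), a scale that understates changes of low genes, and are given as the mut/mut-labelled libraries minus wt/wt with their standard error (SE). A gene was tested if its mean over the 6 libraries was at least 10, and was called at an adjusted p under 0.05 (Benjamini-Hochberg over all 13964 genes tested, two-sided). Groups are called separate when no library of one lies within the range of the other.

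PU.1, the product of Spi1, binds purine-rich boxes of the type GAGGAAGT in myeloid promoters, and since most of these genes moved together, their start regions are shown. RefSeq start regions (build GRCm38.p6, 250 bases before to 50 after the start) were at hand for 25 of the 34 genes. The box GAGGAAGT, searched on both strands, lay in 3 of these 25 (12%) and in 3.69% of the start regions of 27025 genes. Its inner part GAGGAA, which the longer box contains, lay in 15 of 25 (60.0%) and in 31.3% of all genes. A match is a run of letters and not a bound site. The 3 regions with the full box, in C1qc, Cd53 and Ctss, are printed first. Itgam and Marco, with the shorter box alone, stand for a defining integrin that was at 0 in every mut/mut-labelled library and for a scavenger receptor that was not. Capitals mark the boxes, read as ACTTCCTC or TTCCTC where they lie on the other strand.
C1qc (chr4:136892865-136893164, minus strand): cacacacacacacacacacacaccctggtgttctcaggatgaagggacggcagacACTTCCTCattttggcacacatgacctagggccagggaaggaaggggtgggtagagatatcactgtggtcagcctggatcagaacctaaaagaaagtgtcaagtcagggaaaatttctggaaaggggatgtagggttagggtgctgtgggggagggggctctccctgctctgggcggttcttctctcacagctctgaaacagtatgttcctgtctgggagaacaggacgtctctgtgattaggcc
Cd53 (chr3:106790100-106790399, minus strand): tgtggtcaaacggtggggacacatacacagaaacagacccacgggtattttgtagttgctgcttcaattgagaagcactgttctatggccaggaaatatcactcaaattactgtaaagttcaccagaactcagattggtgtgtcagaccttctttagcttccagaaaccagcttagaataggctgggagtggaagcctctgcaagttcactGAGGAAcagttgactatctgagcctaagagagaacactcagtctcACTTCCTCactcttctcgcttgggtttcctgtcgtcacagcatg
Ctss (chr3:95526536-95526835, plus strand): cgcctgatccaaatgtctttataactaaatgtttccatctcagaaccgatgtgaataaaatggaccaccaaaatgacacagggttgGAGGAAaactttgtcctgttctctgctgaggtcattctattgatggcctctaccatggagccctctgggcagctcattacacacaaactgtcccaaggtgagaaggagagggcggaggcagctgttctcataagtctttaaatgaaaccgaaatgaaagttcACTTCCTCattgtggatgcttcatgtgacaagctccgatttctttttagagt
Itgam (chr7:128062390-128062689, plus strand): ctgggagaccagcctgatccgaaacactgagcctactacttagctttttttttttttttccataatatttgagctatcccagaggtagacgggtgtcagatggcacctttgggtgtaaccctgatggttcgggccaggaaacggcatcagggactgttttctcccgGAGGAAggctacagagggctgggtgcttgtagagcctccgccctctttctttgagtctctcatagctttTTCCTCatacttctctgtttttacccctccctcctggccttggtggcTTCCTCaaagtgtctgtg
Marco (chr1:120504975-120505274, minus strand): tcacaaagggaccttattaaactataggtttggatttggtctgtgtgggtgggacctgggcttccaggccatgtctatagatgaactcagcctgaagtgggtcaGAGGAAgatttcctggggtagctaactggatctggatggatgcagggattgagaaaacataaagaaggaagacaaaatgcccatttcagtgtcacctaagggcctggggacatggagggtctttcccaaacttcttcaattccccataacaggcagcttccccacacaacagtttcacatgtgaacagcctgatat

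Facts of the libraries bear on every value that follows. Column totals were 29.0 to 30.4 in wt/wt and 45.0 to 55.7 in the mut/mut-labelled libraries, in units of 1000000, and 1 read was worth an estimated 0.537 to 2.53 normalised counts, so values near 1 rest on single reads. The median log2 difference of all genes tested was -0.07. With every library scaled to an equal total it moved to -0.79, with 7724 genes called lower and 2866 higher in place of 5407 and 5135, and after GC and length correction, in which the trend of each library on the GC content and length of transcripts was removed, it was 0.19, with 4021 and 5661. Across genes tested the log2 difference followed GC content (Spearman correlation 0.570, genes not being independent), and the median GC content was 51.9% for the 34 genes and 51.2% for all. Tsc2 was not lower in the mut/mut-labelled libraries, at 3231, 2934 and 2794 in wt/wt and 4766, 5645 and 8210.5, and a count over the whole gene does not check a deletion of part of it. The study describes loss of its protein, tuberin, on western blots of the sequenced NSCs, which were not analysed here. Ddx3y, a Y-linked gene, was at 867 to 932 in wt/wt and 2.54 to 7.43 in the others, and Xist at 1107, 87.9 and 68.9 in wt/wt and 290.0 to 357 in the others, so the genotype label and the sex of the cells cannot be told apart, and wt/wt replicate 1, the culture with the most of the 34 transcripts, also stood apart in Xist.

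Microglia and macrophage transcripts were present in every wt/wt culture and were low or at 0 in the mut/mut-labelled libraries for most of the 34 genes. Of 30 tested, 27 were lower, 0 were higher (limma, and also 0 at an unadjusted p under 0.05) and 3 (Tmem119, Cd14 and Coro1a) were not called. With equal totals and after GC and length correction 29 of the 30 were lower, all but Tmem119. The correction moved the fitted fold by more than 1.5 times in 18 of the 27, making the fall smaller in 7 (Itgam, Ptprc, Cd53, Msr1, Ctss, Mpeg1 and Cybb) and larger in 11. It also shifts values at 0, which hold no reads, so the corrected size is uncertain for genes at or near 0, such as Itgam and Ptprc. P2ry12, Fcgr1, Mrc1 and Ly86 were too low to be tested. Across all genes tested 38.7% were called lower and 36.8% higher, 75.5% in all, so a call alone is common in this table. The size stood further out, with a median log2 difference of -4.43 over the 30 genes and -0.07 over all genes tested. The filter takes the mean over both genotypes, so a gene high in wt/wt alone can pass it. Without the filter these medians were -4.39 over the 34 genes and -0.24 over 18469 genes. 4 of the 30 were at 0 in every mut/mut-labelled library, and the median of the other 26 was -4.39. In 30 of the 34 genes every mut/mut-labelled library lay below every wt/wt library, a pattern seen in 36.5% of all rows above 0 and in 41.2% of genes tested. The reverse, seen in 30.9% of rows above 0, occurred in 0 of the 34. P2ry12, Tmem119, Cd14 and Coro1a overlapped between groups. RNA of a whole culture was measured, so fewer myeloid cells and less of these RNAs per cell cannot be told apart.

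**Figure D1:**
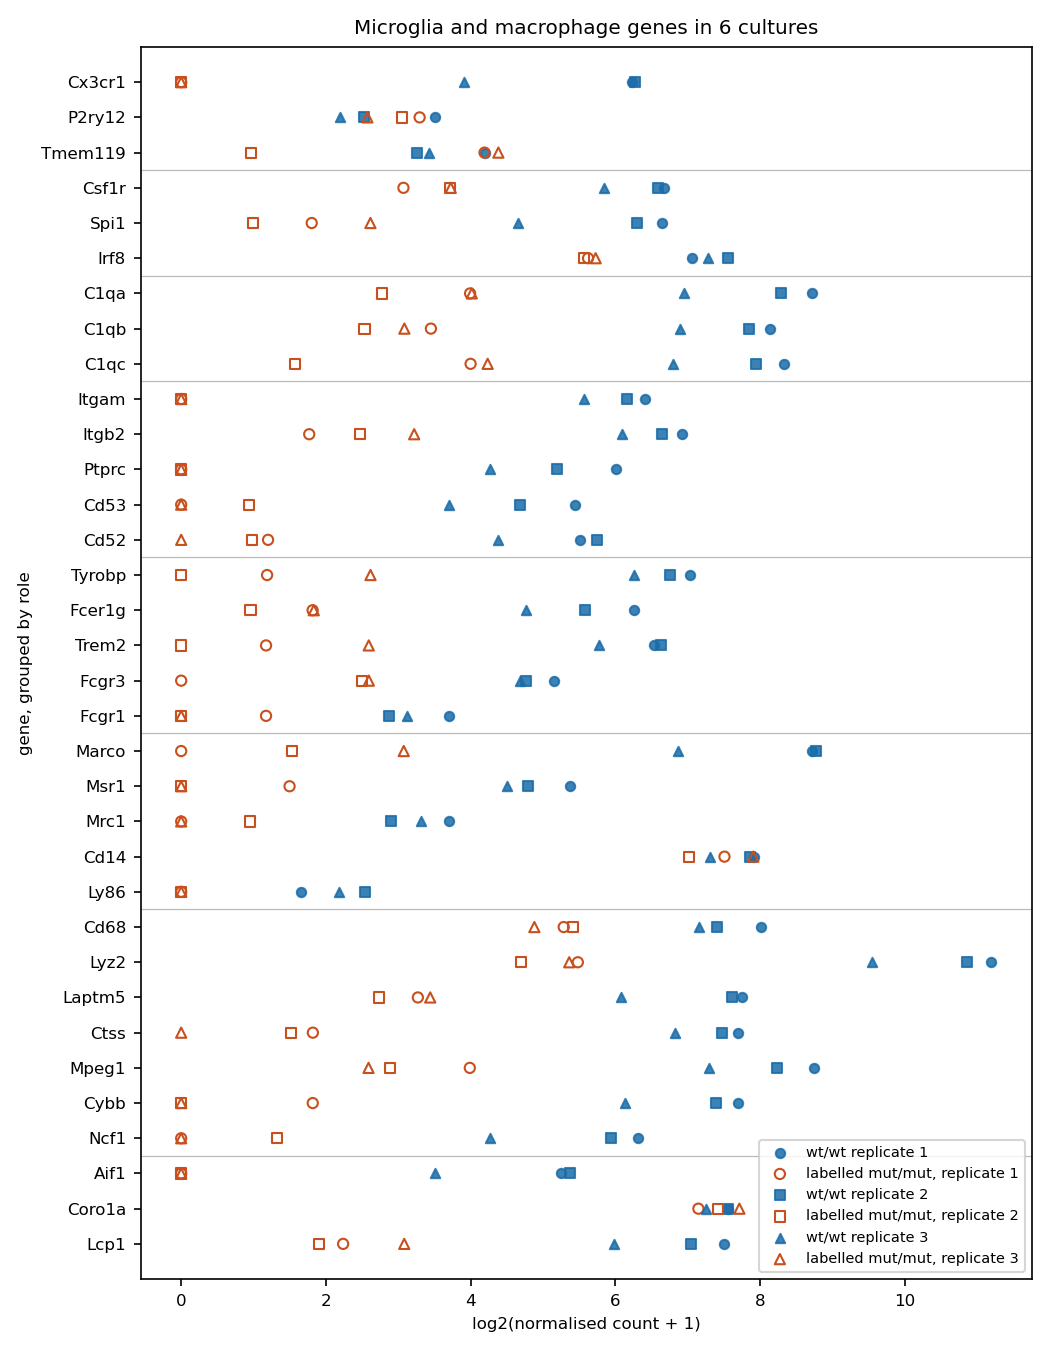
Level of each of the 34 genes in the 6 cultures, as log2(normalised count + 1) on the x axis, grouped by role with grey lines between groups. Filled blue points are wt/wt libraries, open orange points are mut/mut-labelled libraries, and shapes give the replicate. The orange points lie left of the blue ones in 30 genes and among them in P2ry12, Tmem119, Cd14 and Coro1a.

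Summed over the 34 genes, wt/wt replicates 1, 2 and 3 held 7009.9, 5778 and 2809.6 normalised counts. The mut/mut-labelled libraries held 572, 479 and 707. The mean was 5199 ± 2159 (SD, n = 3) against 586 ± 115 (SD, n = 3), a ratio of 8.87. Per 1000000 of the column total the sums were 231, 198 and 96.9 in wt/wt and 12.7, 10.6 and 12.7 in the mut/mut-labelled libraries, a ratio of means of 14.6. Even the lowest wt/wt culture, replicate 3, was 4.80 times the mean of the mut/mut-labelled libraries. In the latter, 21, 21 and 24 of the 34 genes stood at no more than the worth of 3 reads, and 10, 10 and 13 were at 0. No wt/wt library had any of the 34 at so low a level.

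What remained in the mut/mut-labelled libraries came from a few genes. 8 of the 34 (Cd14, Coro1a, Irf8, Cd68, P2ry12, Tmem119, Csf1r and Fcgr3) kept a mean of at least 10% of the wt/wt mean. They made up 77.2% to 86.0% of the summed level in the mut/mut-labelled libraries and 14% to 24.9% in wt/wt. None of the other 26 kept more than 5.33%. Over those 26 genes the wt/wt mean was 4337 and that of the mut/mut-labelled libraries 111, a ratio of 39.0. This split was made after the values were seen.

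The receptor and the transcription factors that define the lineage come first. Csf1r, the receptor for CSF1 and IL-34 on which microglia depend, stood at 101, 95.5 and 56.1 in wt/wt replicates 1, 2 and 3 and at 7.40, 12.2 and 12.2 in the mut/mut-labelled libraries. The groups were separate (log2 difference -2.86 ± 0.36, limma, adjusted p = 4.58e-05). Csf1r (chromosome 18) shares its span with Hmgxb3 on the other strand, whose mean was 1105 in wt/wt and 3496 in the mut/mut-labelled libraries, and the strand setting of the counting was not given, so reads of the pair cannot be told apart. Spi1, which encodes PU.1, stood at 99.4, 77.9 and 24.1 and at 2.49, 0.996 and 5.13, with wt/wt replicate 3 well under the other two wt/wt libraries and the groups separate (log2 difference -4.06 ± 0.60, limma, adjusted p = 0.000138). Irf8, a factor that acts with PU.1 in microglia, stood at 132, 187 and 155 and at 48.3, 46.4 and 51.98. Its fall was the smallest of the 27 called (log2 difference -1.66 ± 0.24, limma, adjusted p = 0.000119), it kept 31% of its wt/wt mean, and its wt/wt libraries did not follow the order seen in Spi1 and Csf1r.

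Homeostatic microglia receptors gave a mixed picture. Cx3cr1, the fractalkine receptor, stood at 73.9, 76.2 and 14.04 in wt/wt and was listed at 0 in all 3 mut/mut-labelled libraries (limma, adjusted p = 3.52e-05). Its annotated span also holds Gorasp1, with means of 1038 and 3006, and Wdr48, with means of 1818 and 1579, so the 0 of Cx3cr1 stood beside neighbours that were read in all libraries. P2ry12, the ADP receptor that steers microglial processes, was low in all libraries, at 10.3, 4.77 and 3.59 and at 8.81, 7.29 and 4.95, overlapped between genotypes and was not tested. Med12l, which lies over P2ry12 on the other strand, had means of 484 and 77.1. Tmem119, a surface protein used to tell microglia from other macrophages, stood at 17.3, 8.60 and 9.69 and at 17.3, 0.957 and 19.9. It was not called (log2 difference -0.44 ± 0.82, limma, adjusted p = 0.636, 95% interval -2.26 to 1.38). Per 1000 bases of median transcript length, the wt/wt mean level was 2.89 for P2ry12 and 9.20 for Tmem119, against 282 for Marco. Siglech, another such marker outside the 34 genes, was at 0 in all 6 libraries. Fcrls, a receptor also used to tell mouse microglia from other macrophages and named here after its values were seen, stood at 102, 103 and 20.4 in wt/wt and at 3.73, 0 and 12.3 in the mut/mut-labelled libraries. Markers held to separate microglia from macrophages thus did not give 1 answer, and most of the 34 genes are shared by both.

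Tmem119 was lowest in the mut/mut-labelled replicate 2. Of the 30 tested genes 13 were lower there than in both other mut/mut-labelled libraries, against 26.5% of all genes tested, among them Spi1, the C1q chains, Tyrobp, Trem2, Cd14 and Lyz2, and the summed level of the 34 was lowest there too, at 479. Replicates 1 and 3 were lowest in 5 and 4 of the 30, against 31.1% and 41.7% of all genes tested. 1 read was worth an estimated 1.25, 0.941 and 2.53 normalised counts in mut/mut-labelled replicates 1, 2 and 3. At few reads the order can follow this worth alone, as in Lcp1, with an estimated 2.97, 2.92 and 2.96 reads. Cd14, at an estimated 144, 137 and 94.6 reads, was well above that floor. The part of this worth in the count of 13 was not tested. Other lists were lowest elsewhere, the summed border macrophage genes in replicate 3, at 398, 368 and 249.8. Genes of pericytes and fibroblasts are also set beside it here. Pdgfrb, a pericyte receptor, stood at 43.99, 16.4 and 21.8 in wt/wt and at 61.7, 9.39 and 68.1 in the mut/mut-labelled libraries. Col1a1, a fibrillar collagen chain, stood at 166, 83.9 and 214 and at 223, 45.8 and 262. Cdh5, the cadherin of endothelial junctions, stood at 10.7, 4.70 and 11.8 and at 19.8, 0.934 and 17.2. In all 5 tested genes of a pericyte and fibroblast list this library was the lowest of the 3. The pericyte, fibroblast and endothelial genes were set beside Tmem119 after their values were seen, and their part in its value was not tested. Without this library the log2 difference of Tmem119 was 0.66 and was not called.

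**Figure D2:**
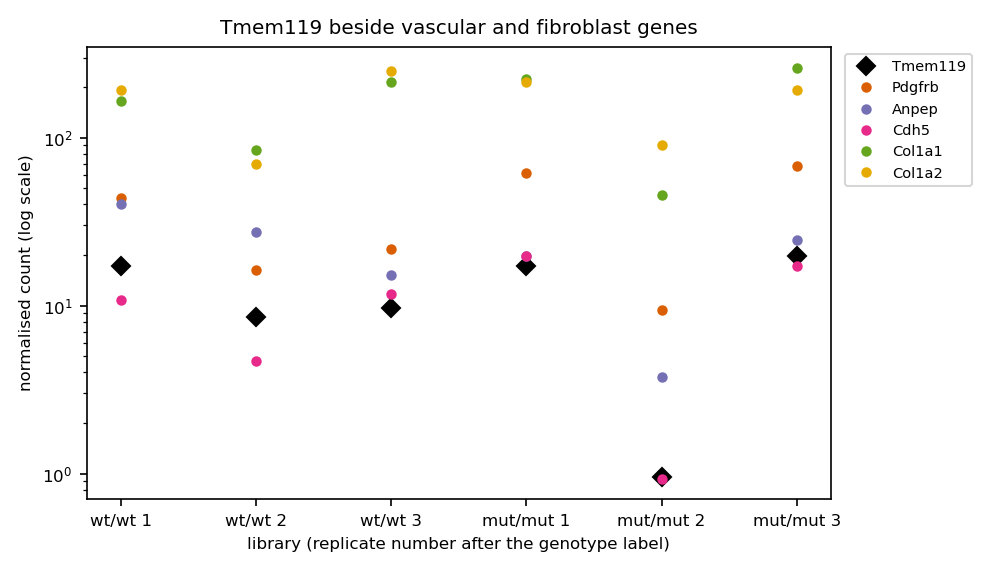
Normalised counts (log y axis) of Tmem119 (black diamonds) and of 5 vascular and fibroblast genes (coloured points) in each of the 6 cultures (x axis). In the mut/mut-labelled replicate 2 Tmem119 was at 0.957, and the other 5 genes were also at their lowest among the libraries of that label.

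C1q, the recognition molecule of the classical complement pathway, is built from 3 chains whose genes lie side by side on chromosome 4 and which brain myeloid cells produce. C1qa (chromosome 4, 136895917 to 136898803, GRCm38) stood at 421, 311 and 122 in wt/wt and at 14.9, 5.83 and 15.2 in the mut/mut-labelled libraries (log2 difference -4.39 ± 0.49, limma, adjusted p = 2e-05). C1qb stood at 280.1, 228 and 117 and at 9.94, 4.79 and 7.48 (log2 difference -4.60 ± 0.40, limma, adjusted p = 4.4e-06). C1qc, whose start region with a full box is printed above, stood at 322, 244 and 110.2 and at 14.99, 1.97 and 17.8 (log2 difference -4.42 ± 0.66, limma, adjusted p = 0.000143). The 3 chains fell by 4.39 to 4.60 on the log2 scale, were separate between genotypes, and had wt/wt replicate 1 highest and replicate 3 lowest.

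Leukocyte surface proteins and integrins fell in all 5 genes. Itgam, the CD11b chain of complement receptor CR3, stood at 84.3, 70.8 and 46.3 in wt/wt and was listed at 0 in all 3 mut/mut-labelled libraries (limma, adjusted p = 2.07e-06). Itgb2, the CD18 chain that pairs with it, stood at 120.0, 99.5 and 67.3 and at 2.41, 4.55 and 8.32 (log2 difference -4.07 ± 0.44, limma, adjusted p = 1.59e-05). Ptprc, the CD45 phosphatase found on all white blood cells, stood at 63.1, 35.7 and 18.3 in wt/wt and was listed at 0 in all 3 others (limma, adjusted p = 1.71e-05, and 0.00174 after GC and length correction). CD45 marks all leukocytes and not myeloid cells alone. Cd53, a tetraspanin of leukocytes, stood at 42.5, 24.7 and 12.1 and at 0, 0.920 and 0 (log2 difference -4.30 ± 0.61, limma, adjusted p = 9.48e-05), and after GC and length correction its difference was -2.10 (limma, adjusted p = 0.0124). Cd52, a short lipid-anchored surface peptide, stood at 44.4, 52.8 and 19.9 and at 1.30, 0.968 and 0 (log2 difference -4.49 ± 0.55, limma, adjusted p = 3.93e-05). All 5 were lower and separate between genotypes. The corrected values of Ptprc and Cd53 rest on levels at or near 0 in the mut/mut-labelled libraries.

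Receptors that signal through an ITAM, a tyrosine motif in a partner chain, fell together with their partner chains. Tyrobp encodes DAP12, the adaptor for TREM2, and stood at 129.9, 107 and 75.7 in wt/wt and at 1.28, 0 and 5.13 in the mut/mut-labelled libraries (log2 difference -5.42 ± 0.61, limma, adjusted p = 2.05e-05). Trem2, the lipid-sensing receptor that needs DAP12, stood at 91.9, 98.2 and 53.6 and at 1.25, 0 and 5.03 (log2 difference -5.06 ± 0.62, limma, adjusted p = 3.65e-05). For both, the highest of the mut/mut-labelled libraries was replicate 3 and replicate 2 was at 0. Fcer1g, the common Fc receptor gamma chain, stood at 75.3, 46.9 and 26.2 and at 2.52, 0.942 and 2.56 (log2 difference -4.00 ± 0.50, limma, adjusted p = 4.39e-05). Fcgr3, a low-affinity IgG receptor, stood at 34.4, 26.3 and 24.6 and at 0, 4.67 and 5.03 (log2 difference -3.17 ± 0.67, limma, adjusted p = 0.00154), the weakest adjusted p of the 27 called. Fcgr1, the high-affinity IgG receptor, was too low to be tested, at 11.96, 6.33 and 7.69 and at 1.25, 0 and 0. Fcgr3 has a close relative in Fcgr4, which was not tested, at 3.15, 3.86 and 0.850 and at 7.49, 12.9 and 10.1, and reads that match both cannot be placed with certainty.

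Scavenger and pattern receptors held genes that fell and a gene that was not called. Marco, a scavenger receptor for bacteria and particles (chromosome 1, 120474538 to 120505024), stood at 418, 436 and 116 in wt/wt and at 0, 1.90 and 7.43 in the mut/mut-labelled libraries. That was a mean of 323 ± 180 (SD, n = 3) against 3.11 ± 3.86 (log2 difference -6.58 ± 0.74, limma, adjusted p = 2.14e-05). Msr1, the class A scavenger receptor, stood at 40.5, 26.6 and 21.6 and at 1.82, 0 and 0 (log2 difference -4.39 ± 0.58, limma, adjusted p = 5.87e-05), and after GC and length correction its difference was -3.22 (limma, adjusted p = 0.000485). Mrc1, the mannose receptor of border macrophages, was low at 12.03, 6.46 and 8.96 and at 0, 0.929 and 0 and was not tested. Ly86, which encodes the MD-1 partner of CD180, was lower still in wt/wt, at 2.15, 4.80 and 3.54, and was listed at 0 in the 3 others. Cd14, the lipopolysaccharide co-receptor, stood at 241, 231 and 158 and at 181, 129 and 239, with the groups overlapping (log2 difference -0.22 ± 0.28, limma, adjusted p = 0.49, 95% interval -0.84 to 0.40). Cd14 depended on the scaling: with equal library totals its log2 difference was -0.93 (limma, adjusted p = 0.0119), and after correction for GC content and length it was -0.65 (limma, adjusted p = 0.0361). Without the mut/mut-labelled replicate 2 it was 0.01.

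Genes of the lysosome, the pore-forming defence and the oxidative burst were lower in 7 of 7. Per 1000 bases of median transcript length, Lyz2 had the highest wt/wt mean level of the 34, at 1253 normalised counts, ahead of Marco at 282 and C1qa at 274. Lyz2, lysozyme of macrophages, made up 30.7% of the summed level in wt/wt and stood at 2347, 1848 and 749.7 there and at 43.7, 25.01 and 40.1 in the mut/mut-labelled libraries (log2 difference -5.35 ± 0.40, limma, adjusted p = 1.89e-06). Lyz1, its close copy on chromosome 10, was at 4.30, 8.73 and 2.62 and at 0, 0.943 and 0, and reads that match both copies cannot be placed with certainty. Cd68, a lysosomal membrane protein also made by other phagocytic cells, stood at 257, 168 and 141 and at 38.02, 41.5 and 28.5 and kept 19.1% of its wt/wt mean (log2 difference -2.33 ± 0.29, limma, adjusted p = 4.51e-05). Laptm5, a lysosomal protein of blood cells, stood at 215, 195 and 66.9 and at 8.65, 5.67 and 9.86 (log2 difference -4.00 ± 0.46, limma, adjusted p = 2.28e-05). Ctss, cathepsin S, which trims the invariant chain of MHC class II, stood at 207, 176 and 113 and at 2.53, 1.87 and 0 (log2 difference -6.22 ± 0.51, limma, adjusted p = 3.46e-06). Its start region carries the full PU.1 box printed above, and none of its values in the mut/mut-labelled libraries exceeded the worth of 3 reads.

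Mpeg1, perforin-2 of macrophages, stood at 426, 300.0 and 156 in wt/wt and at 14.9, 6.37 and 5.02 in the mut/mut-labelled libraries (log2 difference -4.94 ± 0.45, limma, adjusted p = 6.41e-06), and its difference was -3.28 after GC and length correction (limma, adjusted p = 5.12e-05). Cybb, the X-linked catalytic subunit gp91phox of the phagocyte NADPH oxidase, stood at 206, 166 and 69.4 and at 2.53, 0 and 0 (log2 difference -6.47 ± 0.60, limma, adjusted p = 6.83e-06), with a difference of -5.16 after GC and length correction (limma, adjusted p = 2.9e-05). Ncf1, the p47phox organiser of the same enzyme, stood at 78.8, 60.2 and 18.3 and at 0, 1.50 and 0 (log2 difference -5.07 ± 0.64, limma, adjusted p = 4.77e-05), with Gtf2ird2 on the other strand of its span at means of 323 and 462. All 7 genes of this group were lower, were separate between genotypes and had wt/wt replicate 3 lowest of the wt/wt cultures.

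Of the actin regulators, Aif1, which encodes the microglial antigen IBA1, stood at 37.1, 40.5 and 10.4 in wt/wt and was listed at 0 in all 3 mut/mut-labelled libraries (limma, adjusted p = 5.77e-05). Lcp1, the actin bundler L-plastin, stood at 181, 131 and 62.04 and at 3.72, 2.75 and 7.47 (log2 difference -4.43 ± 0.47, limma, adjusted p = 1.51e-05). Coro1a, coronin of leukocytes, stood at 187, 187 and 152 and at 141, 170.4 and 209 and was not called (log2 difference -0.03 ± 0.23, limma, adjusted p = 0.919, 95% interval -0.54 to 0.48). Coro1a overlaps Bola2 on the other strand, whose mean was 1464 in wt/wt and 5144 in the mut/mut-labelled libraries, and reads of the pair cannot be told apart without the strand setting. With equal library totals its log2 difference was -0.74 (limma, adjusted p = 0.012), and after GC and length correction -1.08 (limma, adjusted p = 0.00043). It was 0.02 without wt/wt replicate 1 or 2 and 0.11 without the mut/mut-labelled replicate 1.

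**Figure D3:**
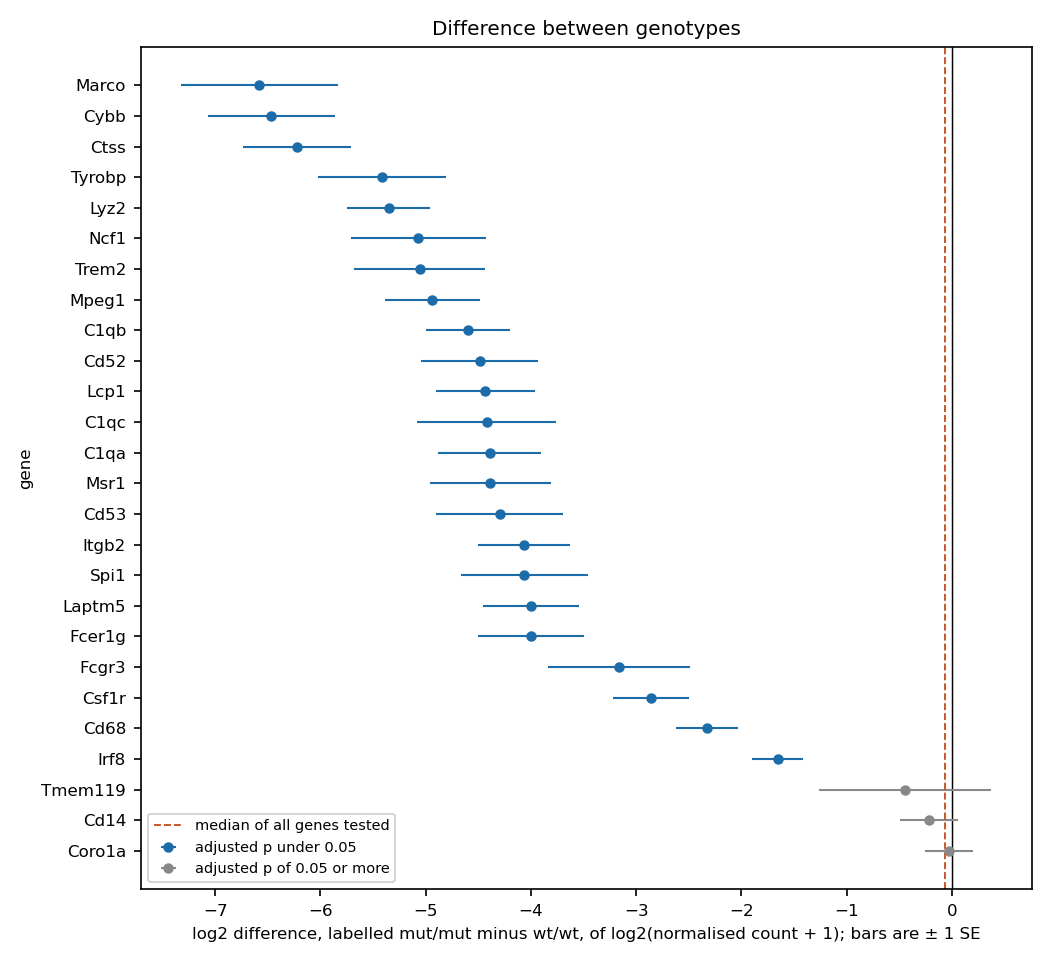
Log2 difference of log2(normalised count + 1), mut/mut-labelled libraries minus wt/wt, for 26 tested genes, with bars of 1 SE on each side, blue where the adjusted p was under 0.05. The orange dashed line is the median of all genes tested, at -0.07. Cx3cr1, Itgam, Ptprc and Aif1 are left out because they were at 0 in every mut/mut-labelled library, and Marco lies farthest left at -6.58 on this scale, while with a pseudocount of 0.5 Cybb lay lower, at -7.20.

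The wt/wt cultures differed among themselves in these genes by more than in most others. Among the 30 of the 34 genes with a wt/wt mean of at least 10, replicate 3 was lowest in 28 and replicate 1 highest in 24, against 34.2% and 50.1% of all rows at that level. Replicate 3 over replicate 1 had a median ratio of 0.393, from 0.19 for Cx3cr1 to 1.17 for Irf8, and replicate 2 over replicate 1 a median of 0.810. Over 14092 genes the same medians were 0.954 and 0.957, with 5% to 95% of the replicate 3 over 1 ratios between 0.647 and 1.67. Replicate 3 was below 0.5 times replicate 1 in 17 of the 30 genes (56.7%) and in 2.24% of all genes. The median coefficient of variation over the 3 cultures was 44.9% for the 30 genes and 10.3% for all genes. Each culture is 1 library, so no test was made between them.

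The neural stem cell genes of the same cultures stood at median ratios of 1.00 both for replicate 2 and for replicate 3 over replicate 1, over 12 genes. Other lists were less even. The 6 pericyte and fibroblast genes at that level had median ratios of 0.590 for replicate 2 and 1.23 for replicate 3 over replicate 1, with a coefficient of variation of 44.2%, close to that of the microglia and macrophage genes. The 2 endothelial genes had ratios of 2.02 and 2.26 and a coefficient of variation of 38.6%. A wide spread over the wt/wt cultures was thus not particular to the 34 genes, and these lists had their low cultures elsewhere. Summed over the 34 genes, replicate 1 held 2.50 times and replicate 2 held 2.06 times the level of replicate 3, and replicate 1 held 1.21 times that of replicate 2. Without the 8 genes that persisted in the mut/mut-labelled libraries, replicate 1 over replicate 3 was 2.86. Over the 30 genes, log2 ratios of normalised count + 1 were taken, of wt/wt replicate 3 to replicate 2 and of the mutant-labelled mean to wt/wt replicate 1. Their Spearman correlation was 0.574 (n = 30 genes). It is a description with no test, since the genes come from the same libraries and are not independent. The added 1 also draws both ratios toward no change in low genes. Irf8, Coro1a, Fcgr3 and Cd14 were the 4 genes with the highest ratio of replicate 3 to replicate 1, at 1.17, 0.809, 0.714 and 0.654.

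**Figure D4:**
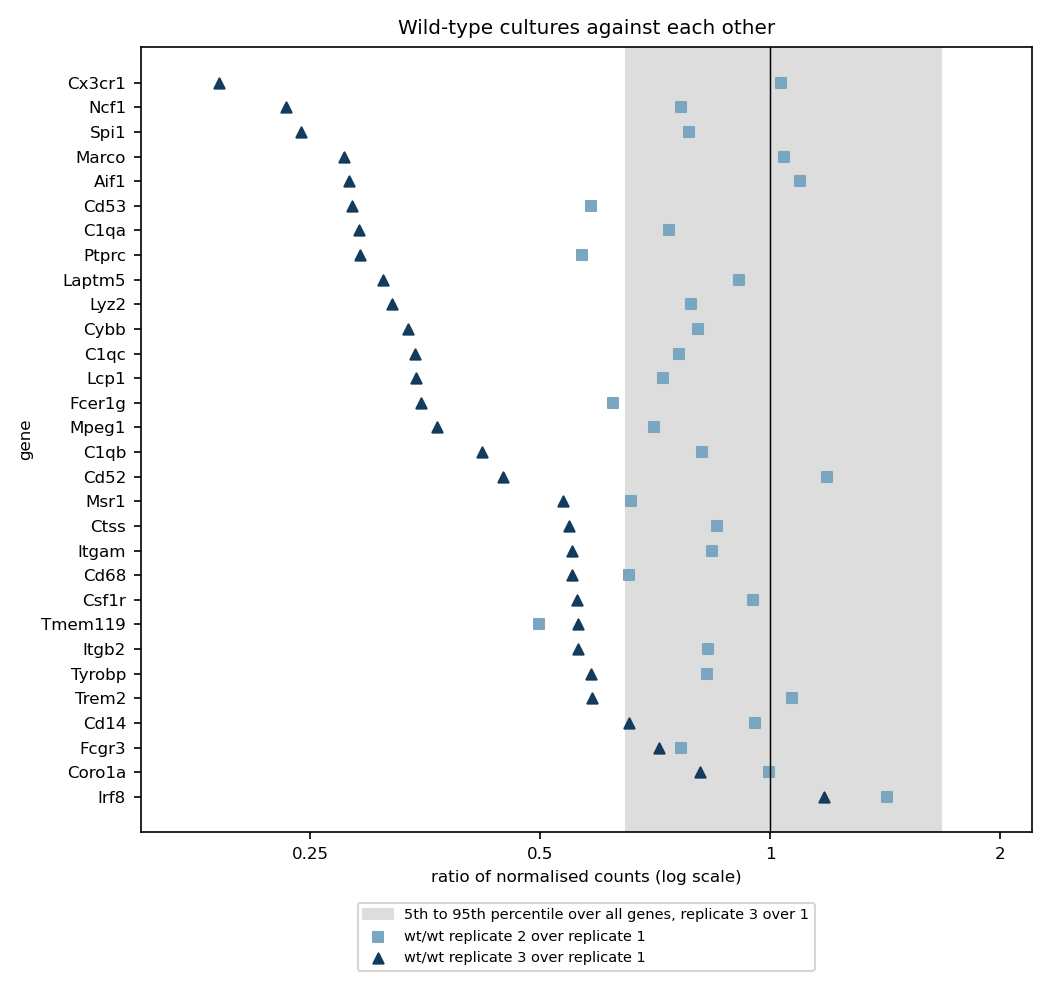
Ratio of normalised counts between wt/wt cultures (log x axis) for the 30 genes with a wt/wt mean of at least 10, sorted by the ratio of replicate 3 to replicate 1 (triangles), with replicate 2 over replicate 1 as squares. The grey band spans the 5th to the 95th percentile of the replicate 3 over 1 ratio over 14092 genes, 0.647 to 1.67. Most triangles lie left of the band, and only that of Irf8 lies right of 1.

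Genes outside the 34 that serve the same cells were read from lists also chosen with earlier results of these data known. Of 8 tested border macrophage genes 7 were lower and 0 higher, and of 8 tested Toll-like receptors and partners 7 were lower and 1 higher, against 38.7% lower and 36.8% higher among all genes. Their most abundant members were Dab2, an endocytic adaptor (-1.51 ± 0.21 on the log2 scale), Maf, a macrophage transcription factor (-0.99 ± 0.33 on the log2 scale), and Stab1, a scavenger receptor (-4.45 ± 0.44 on the log2 scale), and for the Toll-like group Myd88, the shared adaptor (1.10 ± 0.21 on the log2 scale), Tlr3 (-2.24 ± 0.25 on the log2 scale) and Tlr4 (-2.98 ± 0.37 on the log2 scale). After GC and length correction 5 of the 8 border macrophage genes and 3 of the 8 Toll-like genes were still lower and 0 were higher, with Maf, Tlr3, Tlr4, Tlr6 and Cd180 among those no longer called, and Myd88 was called under neither this nor equal totals. Stab1 stood at 188, 125 and 81.1 in wt/wt and at 6.16, 6.62 and 2.43 in the mut/mut-labelled libraries, with wt/wt replicate 3 lowest as in most of the 34 genes. Tlr3 stood at 376, 274 and 334 and at 86.98, 69.5 and 51.6, with wt/wt replicate 2 lowest. Under equal totals 7724 of all 14082 genes tested were lower and 2866 higher. After GC and length correction 4021 of 13239 were lower and 5661 higher. Counts in the lists below are to be read beside these shares.

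Complement genes outside C1q were lower in 6 of 7 tested and higher in 0 (limma), against 38.7% and 36.8% of all genes. Under equal totals 7 were lower, and after GC and length correction 5. Here and for the border macrophage genes the count of higher genes was also 0 at an unadjusted p under 0.05. C4b, a complement cascade component, was at 641, 791 and 1291 in wt/wt and at 175, 236 and 356 in the mut/mut-labelled libraries (-1.82 ± 0.31 on the log2 scale), with wt/wt replicate 3 highest, the reverse of the C1q chains. Cd93, a receptor also made by endothelial cells (-2.02 ± 0.27 on the log2 scale), was not called after GC and length correction, while Cfp, properdin (-1.99 ± 0.27 on the log2 scale), was.

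The signalling chain under the ITAM receptors was lower in 6 of 13 tested and higher in 1, against 38.7% and 36.8% of all genes. Under equal totals 11 of 14 were lower, and after GC and length correction 8 of 13 were lower and 2 higher. Lyn, a Src family kinase, was not called (0.50 ± 0.22 on the log2 scale), though it was higher after GC and length correction. Syk, the kinase that binds ITAMs, was higher (1.05 ± 0.17 on the log2 scale) and lost its call with equal totals, and Skap2, an integrin adaptor, was lower (-1.76 ± 0.23 on the log2 scale). Vav1, a guanine exchange factor of blood cells, stood at 89.7, 64.3 and 22.02 and 1.28, 0 and 0 (-5.29 ± 0.62 on the log2 scale), named after its value was seen. Of the other NADPH oxidase subunits 2 of 4 tested were lower and 1 higher. Under equal totals 4 of 5 were lower and 1 higher, and after correction 2 were lower and 2 higher. Rac2, an oxidase subunit of blood cells, stood at 107, 88.8 and 23.6 and 2.48, 0.933 and 2.46 (-4.44 ± 0.59 on the log2 scale), whereas Rac1, its ubiquitous relative, was not called (0.19 ± 0.14 on the log2 scale), was lower with equal totals and was higher after GC and length correction. Cyba, the membrane partner of Cybb that many cells make, was higher (1.52 ± 0.24 on the log2 scale).

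Further myeloid transcription factors were lower in 6 of 8 tested and higher in 2, against 38.7% and 36.8% of all genes. Under equal totals 7 of 9 were lower and 2 higher, and after correction 5 were lower and 1 higher. Bach1, a haem-regulated repressor (-3.57 ± 0.35 on the log2 scale), and Mef2c, a factor shared by microglia and neurons (-3.22 ± 0.24 on the log2 scale), were lower, and Cebpa, a factor of myeloid progenitors, was higher (2.00 ± 0.21 on the log2 scale) at 688, 562 and 681 and 2328, 2098 and 3441. Bach1 stood at 1800.3, 1672 and 1426 in wt/wt and Mef2c at 1098, 1046 and 998, a narrower spread over the wt/wt cultures than that of Spi1. Of MHC class II genes 1 of 3 tested was lower and 1 higher. H2-Ab1, a beta chain, stood at 267, 637 and 672 and 96.8, 98.3 and 148 (-2.10 ± 0.35 on the log2 scale) with wt/wt replicate 1 lowest, whereas replicate 1 was highest in 24 of the 30 genes above. H2-DMa, a peptide exchanger, was higher (0.92 ± 0.20 on the log2 scale) but not under equal totals or after correction, H2-Eb1 was not called (0.80 ± 0.41 on the log2 scale), and Cd74, the invariant chain, did not exceed 4.71 in any library.

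Further homeostatic microglia genes and disease-associated microglia genes did not move as one. The former were lower in 3 and higher in 4 of 11 tested, the latter lower in 7 and higher in 3 of 16. For both lists the shares of all genes were 38.7% lower and 36.8% higher. These lists shift with the scaling: with equal totals they were lower in 8 and higher in 3 of 12, and lower in 15 and higher in 1 of 18. After GC and length correction they were lower in 3 and higher in 6 of 11, and lower in 8 and higher in 5 of 16. Cst3, cystatin C, which neural cells make as well, was higher (1.51 ± 0.24 on the log2 scale). Golm1, a Golgi protein, was lower (-0.82 ± 0.29 on the log2 scale) but not after correction, and Sall1, a factor of microglia that neural progenitors also use, was not called (-0.13 ± 0.19 on the log2 scale), lower with equal totals and higher after correction. In the disease-associated list Fabp5, a fatty acid carrier (0.23 ± 0.16 on the log2 scale), and Apoe (-0.05 ± 0.21 on the log2 scale) were not called and Ctsd, cathepsin D, was higher (0.94 ± 0.20 on the log2 scale) except with equal totals. With equal totals Fabp5 and Apoe were lower, and after correction Fabp5 was higher and Apoe lower.

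Ligands for myeloid receptors were lower in 4 and higher in 3 of 11 tested, against 38.7% and 36.8% of all genes. They were lower in 7 and higher in 1 under equal totals, and lower in 4 and higher in 2 after GC and length correction. Csf1, the ligand of Csf1r, which also stands in the disease-associated list and is counted in both, was at 1605, 1448 and 1660.2 in wt/wt and at 2771, 2775 and 3202 in the mut/mut-labelled libraries (0.89 ± 0.15 on the log2 scale). Its groups were separate, yet it was called neither with equal totals, at 0.18, nor after GC and length correction, at 0.24. Cx3cl1, fractalkine, the ligand of the Cx3cr1 that was listed at 0, stood at 1814, 2455 and 2609 and at 5502, 6320.1 and 8674 (1.57 ± 0.21 on the log2 scale) and stayed higher under both. Gas6, a ligand of the TAM receptors, was not called (0.43 ± 0.23 on the log2 scale). Csf1 was not called lower under any of these scalings, while Csf1r was lower under all of them, and no link between ligand and receptor was tested.

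Other cell types were read in the same way. Monocyte and neutrophil genes were not tested in any of 12, and 6 of them, Ccr2, Ly6c2, S100a9, Retnlg, Elane and Ly6g, were at 0 in all libraries, with a summed level of 0.280 to 0.617 per 1000000 in wt/wt and 0.0271 to 0.0825 in the mut/mut-labelled libraries. Of 12 lymphocyte and mast cell genes 6 were at 0 throughout (Cd3g, Cd8a, Ms4a1, Nkg7, Cpa3 and Mcpt4) and 1 was tested, Klrb1c, an NK cell receptor gene, which was higher (3.60 ± 0.36 on the log2 scale). Oligodendrocyte precursor genes were also lower between genotypes: 9 of 9 tested, against 38.7% of all genes, with a median log2 difference of -3.73. All 9 were lower with equal totals (median -4.43) and after GC and length correction (median -2.22). For the 30 microglia and macrophage genes tested these medians were -5.08 and -4.89. The summed levels of the precursor genes ran from 475 to 712 per 1000000 in wt/wt and from 48.9 to 54.9 in the mut/mut-labelled libraries. They had wt/wt replicate 3 lowest in 1 of 9, against 28 of 30 for the microglia and macrophage genes. Neuroblast and neuron genes were lower in 8 and higher in 3 of 12, with sums of 669 to 744 and 89.0 to 144 per 1000000. Under equal totals 9 were lower and 2 higher, and after GC and length correction 7 were lower and 2 higher.

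The neural stem cell list itself was lower in 3 and higher in 4 of 12 tested, against 38.7% and 36.8% of all genes. It was lower in 8 and higher in 1 under equal totals, and lower in 4 and higher in 3 after correction. Its sums of 13125 to 14392 and 8544 to 10056 per 1000000 were far above all other lists. Ependymal genes were lower in 1 and higher in 4 of 7, with 1 lower and 1 higher under equal totals and 0 lower and 2 higher after correction. Endothelial genes were lower in 1 and higher in 1 of 3, and pericyte and fibroblast genes lower in 0 and higher in 0 of 5 (limma), with 2 lower under equal totals and 1 after correction. At an unadjusted p under 0.05 without either scaling the last of these lists also had 0 in either direction. Endothelial sums were 15.6 to 32.8 per 1000000 in wt/wt and 2.85 to 5.20 in the mut/mut-labelled libraries. The part of these other shifts in the result for the 34 genes was not tested.

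**Figure D5:**
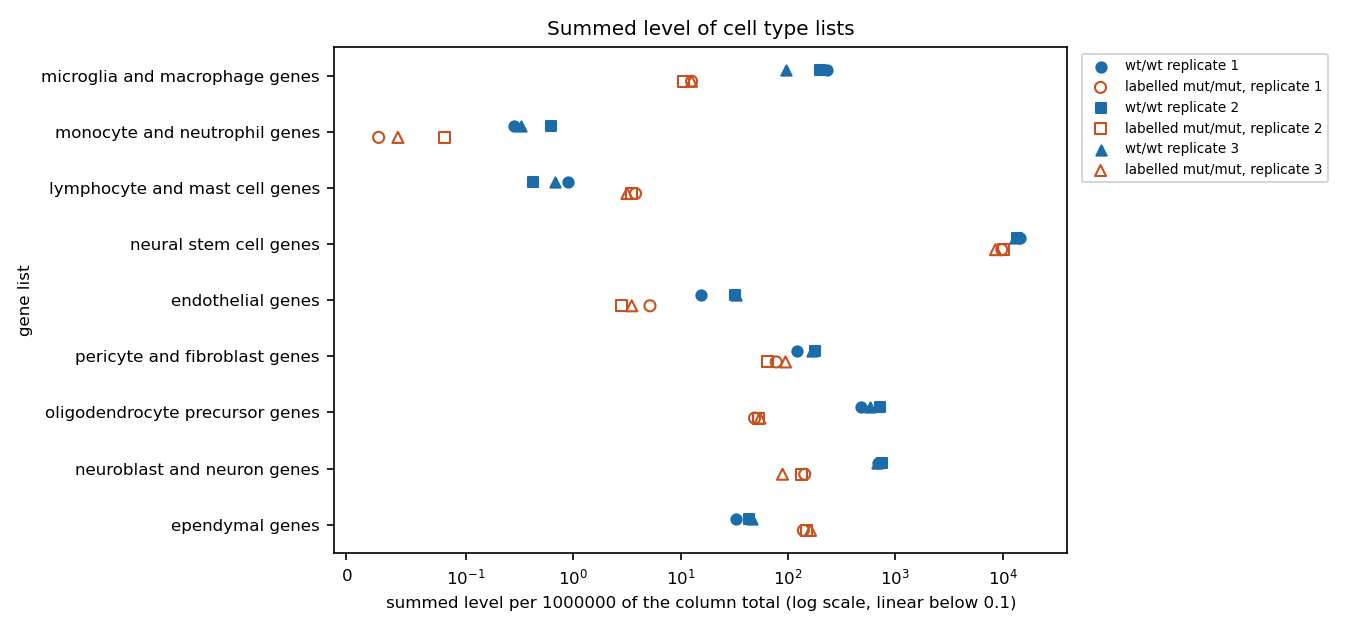
Summed level of each cell type list per 1000000 of the column total (x axis, log scale above 0.1 and linear below), for wt/wt (filled blue) and for mut/mut-labelled libraries (open orange), shapes giving the replicate. Microglia and macrophage genes ran from 96.9 to 231 in wt/wt and from 10.6 to 12.7 in the mut/mut-labelled libraries, while neural stem cell genes were the highest list in all 6.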

How the data were processed

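Gene-level RNA-seq values of 6 mouse NSC cultures were read from 1 table. Per the methods and the submitters' processing notes, reads were aligned to mm10 with STAR and normalised with DESeq2 by the authors. What was deposited is this normalised signal for each gene, not whole counts. The gene counter, annotation and strandedness are not given in the sources used here. Between 53.7% and 73.7% of low values lay within 0.1 of a whole read, so whole reads were not recovered and limma took the place of a count test. The estimated depth was 22.1 to 56.5 reads per library in units of 1000000.

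The 34 genes and the other lists were chosen with earlier results of these data known. Groups came from the genotype labels. The column of wt/wt replicate 2 differs from its label by 1 digit. Genes with a mean of at least 10 entered a limma fit (version 3.58.1, R 4.3.3, eBayes with trend and robust settings) on log2(value + 1), after a check on simulated data. All 34 genes were described, and of each list of other myeloid genes the 3 of highest mean were named. Lists of other cell types were given by counts and sums. Vav1, Tlr6, Cd180, Cd74, Siglech, Fcrls, Fcgr2b, Pdgfrb, Col1a1, Cdh5, Klrb1c and the genes given as at 0 were named outside this rule, after their values were seen. Positions, GC content and length came from GENCODE vM21 (GRCm38), and 94.8% of tested genes had both. Alternatives were pseudocounts of 0.5 and 10, no filter, a mean of at least 100, equal totals, a removed GC and length trend, plain eBayes, a replicate block and each library left out.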

Additional observations from a re-analysis of the deposited data

How the results depend on the processing

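The count of genes called lower, 27 of 30, stayed at 27 with pseudocounts of 0.5 and 10, with plain eBayes and with a block on replicate number, was 30 of 34 without the filter, and 29 of 30 after GC and length correction or with equal totals. With a mean of at least 100 it was 8, since only 10 of the 34 passed that filter. With 1 library left out it was 26 to 27, and the median log2 difference ran from -4.88 to -4.14. That median was -2.46 with a pseudocount of 10 and -5.08 with equal totals. The ratio of summed levels, libraries labelled mut/mut over wt/wt, was 0.113, from 0.0916 to 0.136 with 1 library left out, 0.0685 with equal totals and 0.155 without Lyz2.

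The direction of the 3 genes not called was not stable. With 1 library left out in turn, Coro1a ran from -0.17 to 0.11, turning to 0.02 where either of wt/wt replicates 1 and 2 was dropped and to 0.11 where mut/mut replicate 1 was. Cd14 ran from -0.43 to 0.012 and Tmem119 from -1.04 to 0.66, with the upper value of each reached when mut/mut replicate 2 was dropped. The cause was not tested. The replicate numbers are not known to pair the cultures. Deviations of same-numbered libraries correlated at 0.112, -0.00369 and 0.0712, and of differently numbered ones at -0.0949 to 0.0502. With 3 libraries per group such values cannot exclude a shared preparation. The replicate block gave 27 lower and 0 higher, with no call changed. P2ry12, Fcgr1, Mrc1 and Ly86 had means under 10 and were called, if at all, only without the filter.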

Other observations

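A step down in wt/wt replicate 3 with a low level in the libraries labelled mut/mut was looked for in the whole table. With a wt/wt mean of at least 30, replicate 3 at no more than 0.6 of the lower of replicates 1 and 2, and a mutant-labelled mean of at most 10% of the wt/wt mean, 44 of 12913 genes were found. This filter was set after the values were seen and nothing was tested. 16 of the 44 belong to the 34 genes described here, 6 stand in the other lists, and 28 in all are not among the 34. Of these Gm7334, at 198, 0 and 0 in wt/wt and 0 in all 3 others, shows no such step and passed only because replicates 2 and 3 were both at 0.

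Adgre1, which encodes the macrophage antigen F4/80, stood at 451, 339.7 and 126 in wt/wt and at 2.49, 0.920 and 5.00 in the libraries labelled mut/mut. Acod1, the itaconate-making enzyme of activated macrophages, stood at 152, 109.6 and 39.8 in wt/wt and at 1.26, 0.932 and 0 in the others. Plek, pleckstrin of platelets and leukocytes, stood at 274, 189 and 90.2 and at 6.36, 4.60 and 0. Cd5l, a secreted scavenger protein of macrophages, stood at 88.2, 79.1 and 25.2 in wt/wt and was listed at 0 in all 3 others. Further leukocyte genes found this way were Fcrls, Cd72, Cd84, Clec4d, Hcls1, Myo1f, Dock2 and Pik3ap1.

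The same filter also returned genes not known as myeloid. Vxn, a gene of neural differentiation, stood at 2699, 2355 and 1075 in wt/wt and at 148, 194 and 63.0 in the libraries labelled mut/mut. Rph3a, a synaptic vesicle protein, stood at 126, 142 and 73.5 and at 1.28, 16.7 and 2.55. Ecel1, a neuronal peptidase, stood at 164, 123.5 and 66.8 and at 2.49, 7.89 and 2.53. The filter therefore returned other genes beside myeloid ones. It was set to the pattern of the 34 genes, so the 16 of them among its 44 are no separate support.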
